A study of Mus musculus with 13 samples.

Results

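Transcripts of 9 ETS family transcription factors, Spi1, Ets1, Ets2, Fli1, Erg, Etv6, Elf1, Elf4 and Elk3, were followed across 3 sorted compartments of mouse common lymphoid progenitors (CLP), marrow cells that give rise to lymphocytes. The members are a list of gene symbols with no threshold on measured values, and each of the 9 symbols had its row among the 24072 RefSeq identifiers of the count files. All 9 were among the 12722 genes with enough counts to be tested. RNA sequencing covered 3 Ly6D+Gfra2+, 4 Ly6D+Gfra2- and 6 Ly6D-Gfra2- libraries, all labelled as WT bone marrow of the C57BL/6 strain with no treatment or transgene. Ly6D marks lymphoid progenitors that have begun to favour B-cell fate, and Gfra2 is a co-receptor that binds neurturin. The other surface proteins of the sort, the age of the mice and any pooling of animals are not given in the sources used here. Since no label ties a replicate to its own animal, p-values here cover the spread between libraries, which may be technical.

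ETS factors share a DNA-binding domain, the ETS domain, that reads a core of GGAA, and most act together with partner proteins bound beside them. Several members are required for blood formation: Erg, Fli1 and Etv6 in stem cells, Spi1, which encodes PU.1, in myeloid and early B cells, and Ets1 in lymphocytes. Others act as signal-dependent switches, among them Elk3, a ternary complex factor that binds with serum response factor, and Ets2, which responds to the Ras and MAP kinase pathway.

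Total counts per library lay between 6892728 and 23705975, and between 10837 and 13969 genes had a count. Ly6d was at 213 CPM (counts per 1000000 counts, scaled by TMM, a library normalization) in the library labelled Ly6D-Gfra2- replicate 3, inside the range of 158 to 507 CPM of the 7 Ly6D+ libraries, while the other five Ly6D-Gfra2- libraries lay between 0.623 and 8.30 CPM. The library Ly6D+Gfra2+ replicate 5 had the fewest genes with a count. Library names begin with P or T, a prefix that no label explains. Replicates 1, 2 and 3 of Ly6D-Gfra2- and replicates 1 and 2 of Ly6D+Gfra2- carry P, and all other libraries, with every Ly6D+Gfra2+ library among them, carry T. The 6 markers of the labelled cell type (Il7r, Flt3, Kit, Rag1, Dntt and Ly6a) summed to between 6648 and 7834 CPM in Ly6D+Gfra2+, between 5299 and 6308 CPM in Ly6D+Gfra2- and between 4708 and 5621 CPM in Ly6D-Gfra2- libraries, with none of them at 0. The 12 granulocyte and monocyte markers summed to between 236 and 447 CPM in Ly6D+Gfra2+ libraries. In Ly6D+Gfra2- they summed to between 521 and 637 CPM and in Ly6D-Gfra2- to between 704 and 1624 CPM. Ltf, Ngp, Camp and Cd14 had no count in Ly6D+Gfra2+ libraries, whereas Mpo averaged 240 CPM and Lyz2 89.7 CPM there. Mpo averaged 409 and 792 CPM, and Lyz2 52.4 and 126 CPM, in Ly6D+Gfra2- and Ly6D-Gfra2- libraries. Of the 8 markers tested, 3 had a positive log2 fold change in Ly6D+Gfra2+ over Ly6D+Gfra2-, and 0 over Ly6D-Gfra2-. Cd14 had none in any group and Ltf none in Ly6D+Gfra2-, where Ngp and Camp averaged 1.11 and 0.102 CPM.

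None of the 9 members passed the test in any of the 3 comparisons, with edgeR's quasi-likelihood test and a Benjamini-Hochberg adjusted p under 0.05 over all 12722 genes. The values nearest to it were those of Elk3 and Ets1, both above the Ly6D-Gfra2- mean in Ly6D+Gfra2+ cells. Elk3 was at 391 ± 62.3 CPM in Ly6D+Gfra2+ (SD, n = 3) and 211 ± 30.3 CPM in Ly6D-Gfra2- libraries (SD, n = 6), and Ets1 was at 305 ± 206 CPM against 107 ± 19.7 CPM in the same groups. Each Ly6D+Gfra2+ library held more Erg than any library of the other groups. Groups did not overlap at 9.71% of all genes tested against Ly6D+Gfra2- and at 10.2% against Ly6D-Gfra2-. Etv6, Elf1, Elf4, Fli1 and Spi1 overlapped between all groups, and Ets2 was the scarcest member.

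**Figure D1:**
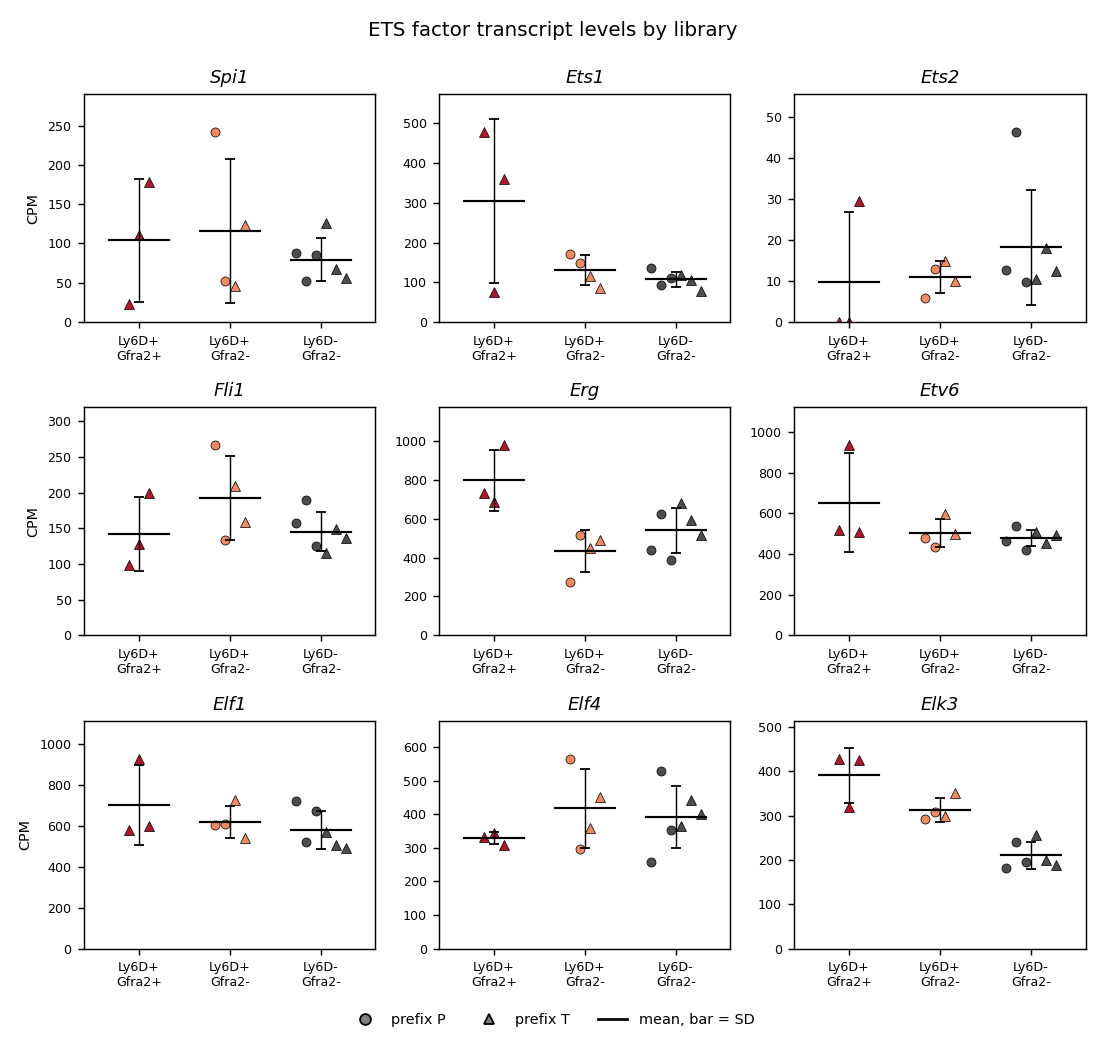
Level of each of the 9 members in CPM (linear y axes from 0, one panel per gene) in every library of Ly6D+Gfra2+, Ly6D+Gfra2- and Ly6D-Gfra2- cells; circles are libraries of prefix P, triangles those of prefix T, the line is the group mean and the bar 1 SD. The Elk3 points of Ly6D+Gfra2+ and Ly6D+Gfra2- lie above all 6 of Ly6D-Gfra2-, whereas 1 of the 3 Ly6D+Gfra2+ points of Ets1 lies below every point of the Ly6D-Gfra2- group.

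The members spanned a wide range of abundance. Levels of different genes were compared as CPM per kilobase of transcript, and averaged over the 13 libraries the order was Erg (175), Elf1 (159.97), Etv6 (95.02), Elk3 (67.4), Elf4 (65.9), Fli1 (47.9), Spi1 (47.2), Ets1 (31.4) and Ets2 (3.60 CPM per kb). Erg lay above 98.7% of the 12533 genes with a length on this scale, and Ets2 above 24.6%. Neighbours in the order were not always apart. Erg was above Elf1 in 8 of 13 libraries, Elk3 above Elf4 in 6, Fli1 above Spi1 in 7 and Spi1 above Ets1 in 10, and in each of these pairs the mean log2 ratio was smaller than its SD over the libraries. Elf1 was above Etv6 in 13 of 13 libraries, Etv6 above Elk3 in 11, Elf4 above Fli1 in 10 and Ets1 above Ets2 in 13, with mean log2 ratios larger than their SD.

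The order differed in places between the groups. On the per-kilobase scale Ets1 ranked 5 of 9 in Ly6D+Gfra2+ libraries (60.0 ± 40.6 CPM per kb) and 8 of 9 in both Ly6D+Gfra2- (25.5 ± 7.41 CPM per kb) and Ly6D-Gfra2- libraries (21.1 ± 3.87 CPM per kb). Erg led in Ly6D+Gfra2+ (246 ± 48.4 CPM per kb) and in Ly6D-Gfra2- libraries (166 ± 35.0 CPM per kb), and Elf1 led in Ly6D+Gfra2- libraries (159.5 ± 19.98 CPM per kb, with Erg at 133 ± 33.5 CPM per kb). The 9 members together summed to between 761 and 928 CPM per kb in Ly6D+Gfra2+, between 616 and 728 CPM per kb in Ly6D+Gfra2- and between 576 and 695 CPM per kb in Ly6D-Gfra2- libraries. Of the sum, Erg, Elf1 and Etv6 made up 28.9%, 21.3% and 13.9% in Ly6D+Gfra2+ libraries, 20.1%, 23.8% and 13.5% in Ly6D+Gfra2- libraries and 26.3%, 24.0% and 13.8% in Ly6D-Gfra2- libraries.

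**Figure D2:**
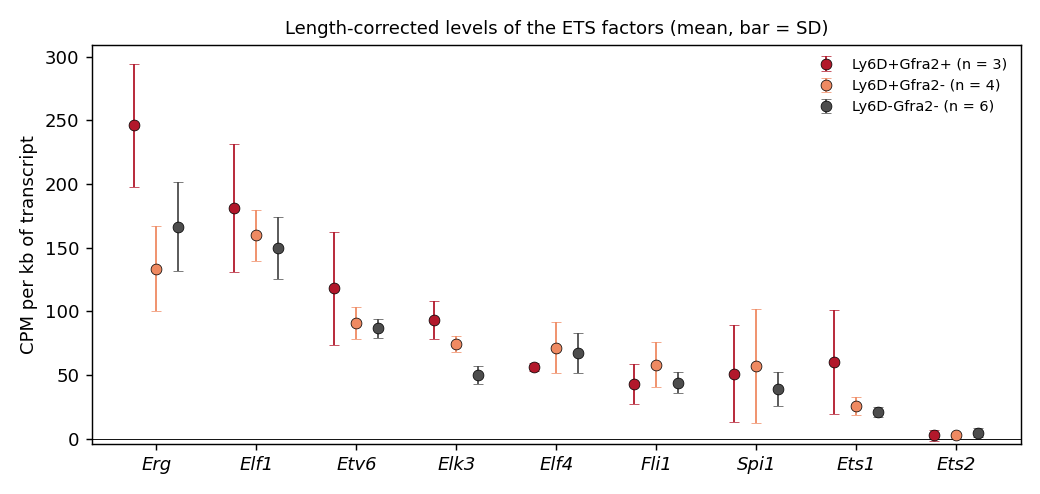
Mean level of each member in CPM per kilobase of transcript, a scale on which genes can be compared, in Ly6D+Gfra2+, Ly6D+Gfra2- and Ly6D-Gfra2- libraries; bars around the points are 1 SD over 3, 4 and 6 libraries. Erg and Elf1 lie highest in each group and Ets2 lies lowest, and Ets1 is at 60.0 CPM per kb in Ly6D+Gfra2+ against 25.5 and 21.1 CPM per kb in the other groups.

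Elk3 (NM_013508, minus strand of chromosome 10, 93247415 to 93311159, GRCm38.p6, the assembly also called mm10) is a repressor that turns activator when phosphorylated. The 250 bases before its annotated start are shown because it was the one member whose values did not overlap in both comparisons with Ly6D-Gfra2- cells. They come from RefSeq for GRCm38.p6, chr10:93311160-93311409, minus strand, written 5′ to 3′ with each GGAA or its reverse complement TTCC in capitals.
Elk3: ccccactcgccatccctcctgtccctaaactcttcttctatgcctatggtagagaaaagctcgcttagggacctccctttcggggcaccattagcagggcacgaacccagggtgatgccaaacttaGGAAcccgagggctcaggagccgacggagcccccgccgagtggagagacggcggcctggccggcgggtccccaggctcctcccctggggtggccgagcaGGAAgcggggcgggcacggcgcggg
The window held 2 matches to the 4-letter core, which 93.4% of 32851 promoter windows of the same length hold at least once on either strand. The longer ETS motifs CCGGAAGT (2.88% of windows) and GAGGAAGT (2.44%), each searched on both strands, were not among its letters.

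Elk3 was at 429, 319.5 and 426 CPM in Ly6D+Gfra2+, at 294, 309, 299 and 351 CPM in Ly6D+Gfra2-, and between 182 and 256 CPM with a median of 198 CPM in the 6 Ly6D-Gfra2- libraries. All 7 Ly6D+ libraries were above all 6 Ly6D-Gfra2- libraries, the library with Ly6d transcripts among them, while the Ly6D+Gfra2+ and Ly6D+Gfra2- groups overlapped. Groups failed to overlap in this way at 10.2% of all genes tested between Ly6D+Gfra2+ and Ly6D-Gfra2-, and at 1.53% between Ly6D+Gfra2- and Ly6D-Gfra2-. Elk3 varied little between replicates: its SD within groups was 0.19 on the log2 CPM scale, and 2.19% of 1417 genes of a level within 2-fold of its own had a smaller one. The gene Cdk17 overlaps the Elk3 locus, and because the strand of the counting is not stated, reads of the 2 genes cannot be told apart where they overlap. Cdk17 was at 167 ± 37.2 CPM in Ly6D+Gfra2+ (n = 3), 134 ± 20.9 CPM in Ly6D+Gfra2- (n = 4) and 101 ± 10.9 CPM in Ly6D-Gfra2- libraries (n = 6; SD in each).

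The fitted fold of Elk3 was 1.81 in Ly6D+Gfra2+ over Ly6D-Gfra2- (95% confidence interval 1.33 to 2.45), a log2 fold change of 0.85 (SE 0.21; edgeR, Benjamini-Hochberg adjusted p = 0.0526). Against Ly6D-Gfra2-, Ly6D+Gfra2- cells had 1.49-fold as much (1.15 to 1.91; log2 0.57, SE 0.17; edgeR adjusted p = 0.807, unadjusted p = 0.00424). Between Ly6D+Gfra2+ and Ly6D+Gfra2- the fold was 1.22 (0.88 to 1.69; edgeR adjusted p = 0.632). The first of these values lies at the threshold, and other tools placed it on the other side: DESeq2 gave a log2 fold change of 0.86 (adjusted p = 0.00128) and limma voom 0.93 (adjusted p = 0.0441). With edgeR, leaving out Ly6D+Gfra2+ replicate 5 or Ly6D+Gfra2- replicate 1 also brought the adjusted p under the threshold (0.0374 and 0.0494). Within prefix T alone, where 3 libraries stood against 3, edgeR gave 0.86 (adjusted p = 0.172). In bulk samples such as these, fewer cells that hold a transcript and less of it per cell cannot be told apart.

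Ets1 (NM_011808, plus strand of chromosome 9, 32636241 to 32757820) is an activator needed for T, NK and B lymphocyte development. It was at 478, 76.5 and 360.3 CPM in Ly6D+Gfra2+ replicates 4, 5 and 6, at 170.4, 149, 115 and 84.8 CPM in Ly6D+Gfra2- replicates 1, 2, 5 and 6, and between 77.8 and 135 CPM with a median of 109 CPM in the Ly6D-Gfra2- libraries. Replicates 4 and 6 of Ly6D+Gfra2+ were above every other library, and replicate 5, which also had the fewest genes with a count, was below all of them. The fold over Ly6D-Gfra2- was 3.24 (1.76 to 5.96; log2 1.69, SE 0.42; edgeR adjusted p = 0.0538) and over Ly6D+Gfra2- it was 2.73 (1.38 to 5.39; log2 1.45, SE 0.47; edgeR adjusted p = 0.193). Between Ly6D+Gfra2- and Ly6D-Gfra2- the log2 fold change was 0.25 (fold 1.19, 0.71 to 1.99; edgeR adjusted p = 0.999).

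Whether Ets1 was called depended on replicate 5 of Ly6D+Gfra2+ and on the tool and settings. Without replicate 5, the log2 fold change was 2.15 over Ly6D-Gfra2- (edgeR adjusted p = 0.00082) and 1.91 over Ly6D+Gfra2- (edgeR adjusted p = 0.00841), both past the threshold. Without Ly6D+Gfra2+ replicate 4, the library with the highest value, it was 1.21 over Ly6D-Gfra2- (edgeR adjusted p = 0.171). With all 13 libraries, DESeq2 gave 1.70 (adjusted p = 0.00794) in this comparison. Limma voom, run with quality weights that do not count the libraries equally, gave 1.69 (adjusted p = 0.0234). Within prefix T edgeR gave 1.60 (adjusted p = 0.25). Over the 24 alternative settings of this comparison the value of Ets1 was positive in 24 and called in 7, with adjusted p between 0.000797 and 0.25, and that of Elk3 was positive in 24 and called in 8, with adjusted p between 0.00128 and 0.198.

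**Figure D3:**
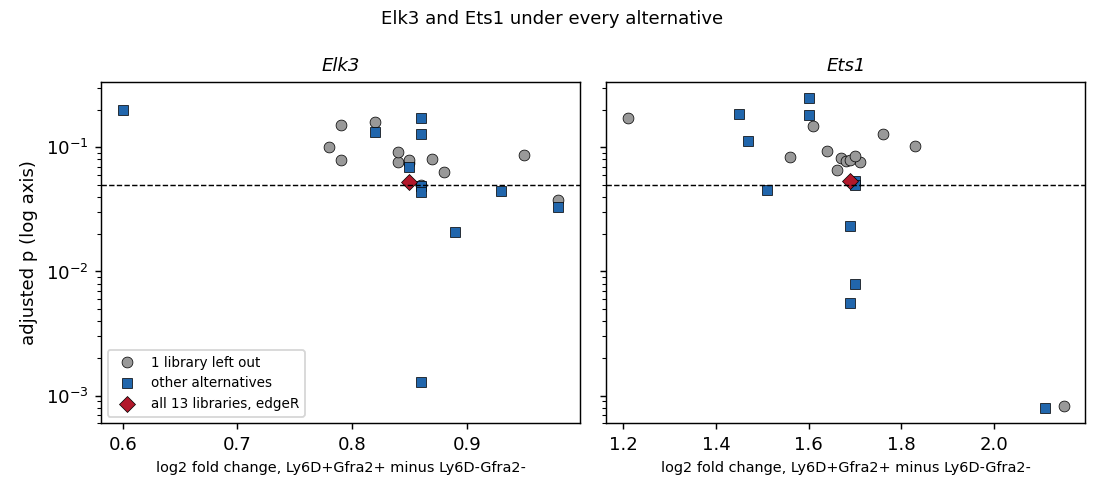
Log2 fold change (x axis) against Benjamini-Hochberg adjusted p (y axis, log scale) of Elk3 and Ets1 in Ly6D+Gfra2+ over Ly6D-Gfra2-, one point for each processing setting. The values with all 13 libraries lie at 0.85 and 1.69 with adjusted p of 0.0526 and 0.0538, and the alternatives fall on both sides of the threshold of 0.05.

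Erg (NM_133659, minus strand of chromosome 16, 95359169 to 95586600) maintains blood stem cells, and Fli1 (NM_008026, minus strand of chromosome 9, 32422204 to 32543432), its close relative, acts in stem cells, megakaryocytes and endothelium. Each lies beside another member. Fli1 and Ets1 are 92.8 kb apart and Erg and Ets2 115.8 kb apart, with 0 protein-coding genes in either gap. Erg was at 732, 688 and 979 CPM in Ly6D+Gfra2+, at 275, 516, 451 and 491 CPM in Ly6D+Gfra2-, and between 386 and 683 CPM with a median of 556 CPM in the Ly6D-Gfra2- libraries. The lowest Ly6D+Gfra2+ library was just above the highest Ly6D-Gfra2- library, and the Ly6D+Gfra2- and Ly6D-Gfra2- groups overlapped. Between Ly6D+Gfra2+ and Ly6D-Gfra2-, 10.2% of all genes tested did not overlap.

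The fold of Erg was 1.68 over Ly6D+Gfra2- (1.16 to 2.41; log2 0.75, SE 0.25; edgeR adjusted p = 0.21, unadjusted p = 0.00823), a comparison in which 9.71% of all genes tested did not overlap. Over Ly6D-Gfra2- it was 1.35 (0.96 to 1.89; edgeR adjusted p = 0.393), and in Ly6D+Gfra2- over Ly6D-Gfra2- it was 0.80 (0.60 to 1.07; edgeR adjusted p = 0.999). Fli1 was at 98.8, 128 and 199 CPM in Ly6D+Gfra2+, at 266, 134, 209 and 159 CPM in Ly6D+Gfra2-, and between 116 and 190.3 CPM in Ly6D-Gfra2- libraries, with a median of 143 CPM. The 3 ranges overlapped. Its log2 fold change was -0.34 over Ly6D+Gfra2- and 0.07 over Ly6D-Gfra2- in Ly6D+Gfra2+ cells, and 0.40 in Ly6D+Gfra2- over Ly6D-Gfra2- cells. Endothelium also expresses Erg and Fli1. Its 8 markers summed to between 253 and 359 CPM in Ly6D+Gfra2+, between 343 and 399.5 CPM in Ly6D+Gfra2- and between 282 and 357 CPM in Ly6D-Gfra2- libraries. Most of that sum was Pecam1, which blood progenitors also express, at 210.3 ± 58.5 CPM in Ly6D+Gfra2+, 243 ± 61.3 CPM in Ly6D+Gfra2- libraries and, in Ly6D-Gfra2- libraries, 204 ± 26.8 CPM. Egfl7 averaged 42.9, 80.5 and 53.4 CPM and Eng 41.3, 34.9 and 40.7 CPM in these groups, in the same order. Cdh5, a defining endothelial marker, reached 13.4 CPM in Ly6D+Gfra2+, 30.5 CPM in Ly6D+Gfra2- and, in Ly6D-Gfra2- libraries, 7.69 CPM. Tek was the one marker of the 8 with no count in any library, and the markers' part in the levels of Erg and Fli1 was not tested.

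Spi1 (NM_011355, plus strand of chromosome 2, 91082374 to 91115759) encodes PU.1, which drives myeloid development at high levels and allows B-cell development at lower ones. Its level was 22.8, 111 and 178 CPM in Ly6D+Gfra2+ libraries, then 242, 52.2, 45.4 and 124 CPM in Ly6D+Gfra2-, and between 52.3 and 126 CPM with a median of 75.9 CPM in the Ly6D-Gfra2- libraries. The groups overlapped fully, and Spi1 spread more within groups than most genes of its level: its SD of 0.99 on the log2 CPM scale exceeded that of 91.6% of 3429 such genes. The fold was 0.99 in Ly6D+Gfra2+ over Ly6D+Gfra2-, with an interval from 0.37 to 2.68, and 1.42 over Ly6D-Gfra2- (0.59 to 3.41). In Ly6D+Gfra2- over Ly6D-Gfra2- it was 1.43 (0.67 to 3.04). Single libraries carried the direction of both comparisons with Ly6D-Gfra2-: the edgeR log2 fold change of Ly6D+Gfra2- cells was 0.51 with all libraries and -0.18 without Ly6D+Gfra2- replicate 1, the one at 242 CPM, and that of Ly6D+Gfra2+ cells was 0.50 and, without Ly6D+Gfra2+ replicate 6, -0.13. With limma voom the same log2 fold changes were -0.07 and -0.05. These intervals leave room for a difference of more than 2-fold in either direction between the Gfra2+ and Gfra2- groups of Ly6D+ cells.

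Known PU.1 target genes of myeloid cells were read beside it. Their list was chosen with earlier results of these data known, so its contrast with all genes is not independent of them. Of 12 listed, 10 could be tested. None passed in Ly6D+Gfra2- over Ly6D-Gfra2-, where 0% of all genes passed. In Ly6D+Gfra2+, 1 fell against Ly6D+Gfra2- and 1 against Ly6D-Gfra2-, where 0.409% and 1.39% of all genes were called. The list's median log2 fold changes were -1.83 and -1.07 in the same order, beside 0.03 and 0.01 over all genes tested. Fcer1g, the Fc receptor gamma chain, fell to 13.7 ± 11.8 CPM in Ly6D+Gfra2+, against 133 ± 37.8 CPM in Ly6D+Gfra2- libraries (log2 -2.77; edgeR adjusted p = 0.0428). Itgam, the integrin chain CD11b, fell to 13.2 ± 6.44 CPM in Ly6D+Gfra2+, against 93.3 ± 22.7 CPM in Ly6D-Gfra2- libraries (log2 -2.87; edgeR adjusted p = 0.0157). Both calls were fragile with edgeR: within prefix T the adjusted p was 0.204 and 0.0664, the call of Fcer1g was lost on leaving out any of 11 of the 13 libraries in turn (adjusted p up to 0.142), and that of Itgam on leaving out Ly6D-Gfra2- replicate 4 (0.0508). The granulocyte and monocyte markers share Itgam, Csf1r, Csf3r and Cd14 with this list. Their sums, given above, were lowest in the same Ly6D+Gfra2+ libraries, and their part in the result was not tested.

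Etv6 (NM_007961, plus strand of chromosome 6, 134035700 to 134270158) is a repressor required by blood stem cells in adult marrow. It was at 518, 936 and 507 CPM in Ly6D+Gfra2+, at 481, 435, 598 and 498 CPM in Ly6D+Gfra2-, and between 421 and 536 CPM in Ly6D-Gfra2- libraries, with a median of 478 CPM. Only Ly6D+Gfra2+ replicate 5 stood above the rest, and the groups overlapped. Without that library the log2 fold change over Ly6D+Gfra2- was -0.03, against 0.32 with it.

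Elf1 (NM_001286411, plus strand of chromosome 14, 79481174 to 79582491) is an activator of lymphoid and other blood genes, and Elf4 (NM_019680, minus strand of chromosome X, 48411049 to 48463132), its relative, is known for a part in stem cell quiescence and NK cell development. Elf1 was at 579, 931 and 602 CPM in Ly6D+Gfra2+, at 606, 608, 727 and 541 CPM in Ly6D+Gfra2-, and between 494 and 722 CPM in Ly6D-Gfra2- libraries. As with Etv6, its highest value was that of Ly6D+Gfra2+ replicate 5, and without that library the log2 fold change over Ly6D+Gfra2- was -0.0036, against 0.25 with it. Elf1 overlaps Wbp4, which averaged 54.0, 49.9 and 43.2 CPM in Ly6D+Gfra2+, Ly6D+Gfra2- and Ly6D-Gfra2- libraries, and ranged from 17.6 to 80.2 CPM over all 13. Elf4 was at 332, 345 and 309 CPM in Ly6D+Gfra2+, at 566, 296, 360.0 and 451 CPM in Ly6D+Gfra2-, and between 258 and 529.6 CPM in Ly6D-Gfra2- libraries. Its 3 Ly6D+Gfra2+ values lay inside the ranges of both other groups, with a fold of 0.78 over Ly6D+Gfra2- (0.52 to 1.17) and 0.84 over Ly6D-Gfra2- (0.57 to 1.21).

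Ets2 (NM_011809, plus strand of chromosome 16, 95702407 to 95721049) had no count in Ly6D+Gfra2+ replicates 4 and 5 and was at 29.4 CPM in replicate 6. Ly6D+Gfra2- libraries had it at 5.91, 12.8, 14.9 and 9.95 CPM, and Ly6D-Gfra2- libraries between 9.63 and 46.2 CPM with a median of 12.4 CPM. The Ly6D+Gfra2+ group thus held both the lowest values and one above all Ly6D+Gfra2- libraries. At these depths 3 counts correspond to between 0.127 and 0.435 CPM of the total, so the zeros lie well below the values in other libraries. The fold was 0.97 over Ly6D+Gfra2-, with an interval from 0.12 to 8.14, and 0.61 over Ly6D-Gfra2- (0.07 to 5.16). Replicate 6 decided it: without that library Ets2 had 0 counts in Ly6D+Gfra2+ cells, at least 61.5-fold lower than in Ly6D+Gfra2- and at least 124-fold lower than in Ly6D-Gfra2- libraries, reckoned against 3 counts over the 2 libraries left (edgeR adjusted p = 0.0227 and 0.0118).

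The members' counts and fold changes were set beside those of all genes. The members were chosen with earlier results of these data known, so this contrast is not independent of them. Between Ly6D+Gfra2- and Ly6D-Gfra2-, 0 of 9 members and 0% of all genes passed with edgeR (1 member and 599 genes, or 11.1% and 4.71%, at an unadjusted p under 0.05), and DESeq2 called 0 members and 0.342% of genes. Between Ly6D+Gfra2+ and Ly6D+Gfra2-, 0 of 9 members passed against 0.409% of all genes with edgeR (2 members, or 22.2%, and 13.2% of genes at an unadjusted p under 0.05), and 0 members against 4.7% of genes with DESeq2. Between Ly6D+Gfra2+ and Ly6D-Gfra2-, 0 of 9 passed against 1.39% with edgeR (2 members, or 22.2%, and 15.4% of genes at an unadjusted p under 0.05), and DESeq2 called 2 members, Elk3 and Ets1, against 6.23% of genes. The same 2 members were those called by limma voom, against 0.857% of genes. The median log2 fold change of the members was 0.10, 0.25 and 0.38 in these comparisons, beside -0.01, 0.03 and 0.01 over all genes tested. The median size of the change regardless of sign was 0.32, 0.32 and 0.43 for the members and 0.39, 0.65 and 0.63 for all genes. The last of these comparisons shares its libraries with both others.

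**Figure D4:**
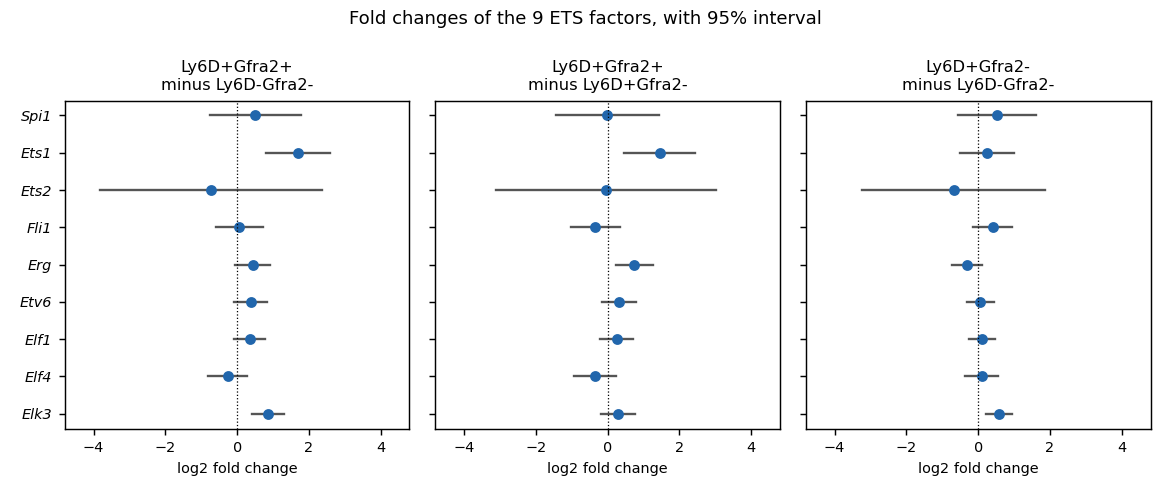
Log2 fold change of each member with its 95% confidence interval in the 3 comparisons, from the edgeR fit of all 13 libraries; a value above 0 is higher in the group named first. The intervals of Ets1 and Elk3 in Ly6D+Gfra2+ over Ly6D-Gfra2- lie above 0, and those of Ets2 and Spi1 are the widest.

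The prefixes could be compared for one contrast, Ly6D+Gfra2- over Ly6D-Gfra2-, which both hold. No member passed the test of a difference in log2 fold change between the prefixes, with edgeR adjusted p between 0.822 and 1.0 for the interaction over 13194 genes, of which 0 passed and 973 had an unadjusted p under 0.05. The estimates were imprecise: the log2 fold change of Spi1 was 0.96 within prefix P and 0.03 within prefix T (difference -0.94, SE 0.82), and that of Ets2 was -1.28 and -0.13 (difference 1.15, SE 1.17). Elk3 averaged 301 CPM in Ly6D+Gfra2- libraries of prefix P, against 206 CPM in Ly6D-Gfra2- libraries of that prefix, and 325 against 215 CPM within prefix T. The corresponding means of Ets1 were 159.6 and 113 CPM in prefix P, and 99.97 and 101 CPM in prefix T. For Ly6D+Gfra2+, which has prefix T only, prefix and group cannot be told apart except within prefix T.

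The rest of the ETS family, also listed with earlier results of these data known, gave the same count of calls. Of 18 other family genes listed, 17 were in the count files and 11 could be tested, and none passed with edgeR in any comparison (3, 4 and 3 at an unadjusted p under 0.05, in the order above, or 27.3%, 36.4% and 27.3% of them, beside the 4.71%, 13.2% and 15.4% of all genes). Elf3, Ehf, Etv2 and Fev had no count in any library. Spib, a close relative of Spi1 that acts in B cells and plasmacytoid dendritic cells, was at 0, 0 and 0.217 CPM in Ly6D+Gfra2+, and 271, 10.3, 44.2 and 28.6 CPM in Ly6D+Gfra2- libraries. Its median was 0.401 CPM in Ly6D-Gfra2-, from 0.119 to 49.8 CPM, the highest being replicate 3, the one with Ly6d transcripts. The Ly6D+Gfra2+ and Ly6D+Gfra2- libraries did not overlap, which held for 9.71% of all genes tested. By pooled counts, 2 against 5129, Spib was 1212-fold lower in Ly6D+Gfra2+, with a 95% counting interval from 335 to 10013. That interval leaves out the spread between libraries. Without Ly6D+Gfra2- replicate 1 the ratio was 313 (86.4 to 2589). The fitted test did not pass with all libraries (edgeR adjusted p = 0.0952) and passed without the Ly6D-Gfra2- replicate 3 (edgeR adjusted p = 0.0134). The log2 fold change of Spib in Ly6D+Gfra2- over Ly6D-Gfra2- cells was 4.93 (SE 1.29; edgeR adjusted p = 0.807, and 0.00606 without that replicate). The 6 plasmacytoid dendritic cell markers, of which Spib is one, summed to between 448 and 558 CPM in Ly6D+Gfra2+ and between 947 and 1313 CPM in Ly6D+Gfra2- libraries. In Ly6D-Gfra2- libraries they summed to between 581 and 1189 CPM, the highest being replicate 3, the one with Ly6d transcripts. Tcf4 averaged 412, 652 and 572 CPM and Siglech 18.4, 293 and 77.5 CPM in these groups, in the same order. The part of these markers in the result was not tested.

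The repressors Erf and Etv3 had their highest values in Ly6D+Gfra2+ replicate 5. Erf was at 96.3, 299 and 9.64 CPM in Ly6D+Gfra2+ libraries, against a mean of 22.3 ± 11.5 CPM in Ly6D+Gfra2- libraries and 24.5 ± 13.3 CPM in Ly6D-Gfra2- libraries. Etv3 was at 62.3, 226 and 51.5 CPM in Ly6D+Gfra2+ libraries, against 24.3 to 35.2 CPM in Ly6D+Gfra2- and 19.2 to 53.4 CPM in Ly6D-Gfra2- libraries. Etv3 in Ly6D+Gfra2+ did not overlap with Ly6D+Gfra2-, which held for 9.71% of all genes tested, and Erf overlapped. Over Ly6D+Gfra2- the log2 fold change was 2.69 for Erf and 1.70 for Etv3 (edgeR adjusted p = 0.216 and 0.199; DESeq2 adjusted p = 0.038 and 0.0364). Without Ly6D+Gfra2+ replicate 6, Erf passed with edgeR (adjusted p = 0.0449). Etv1 was at 1.26, 0.598 and 9.32 CPM in Ly6D+Gfra2+ and at 17.1 ± 9.13 CPM in Ly6D+Gfra2- libraries (log2 -2.40; edgeR adjusted p = 0.349). Spic, a relative of Spi1 known from splenic macrophages, had 0 counts in both Ly6D+ groups and 107 in Ly6D-Gfra2- libraries, where it averaged 1.29 ± 1.33 CPM and 2 of the 6 libraries also had none. By these pooled counts it was at least 11.5-fold lower in Ly6D+Gfra2+ and at least 24.4-fold lower in Ly6D+Gfra2- cells, reckoned against 3 counts over the group, and it did not pass the fitted test (edgeR adjusted p = 0.303 and 0.958).

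**Figure D5:**
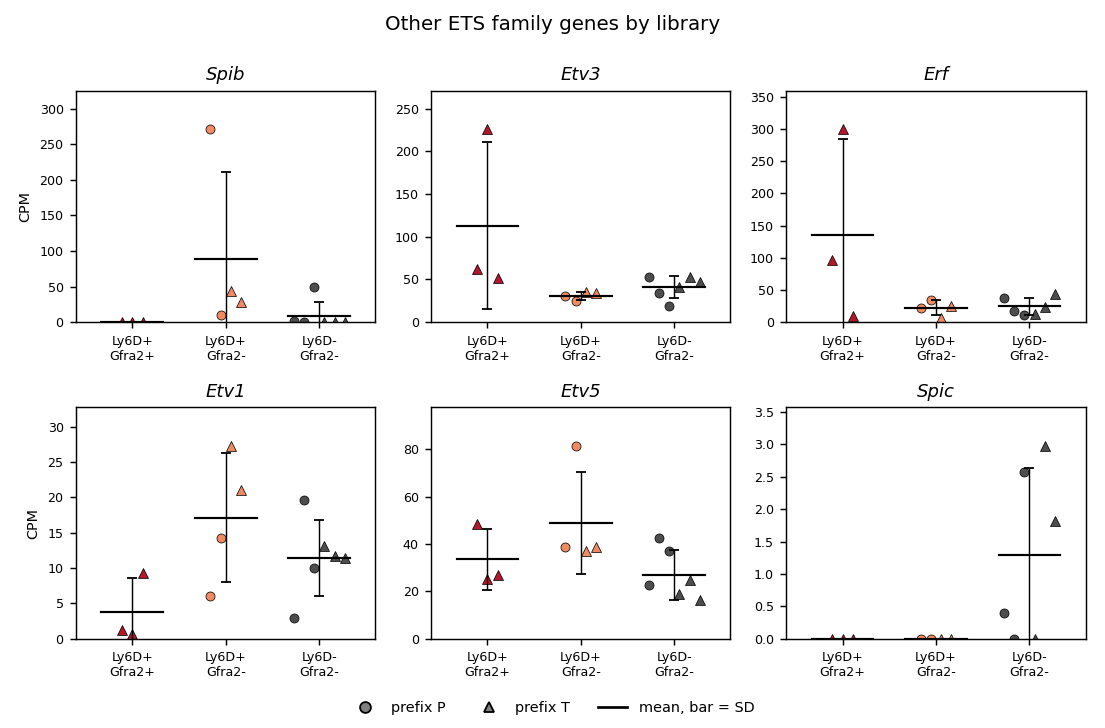
Level in CPM of 6 other ETS family genes (Spib, Etv3, Erf, Etv1, Etv5 and Spic) in every library of Ly6D+Gfra2+, Ly6D+Gfra2- and Ly6D-Gfra2- cells, one panel per gene; circles are prefix P, triangles prefix T, the line is the mean and the bar 1 SD. Spib lies between 10.3 and 271 CPM in Ly6D+Gfra2- and at or near 0 in Ly6D+Gfra2+ libraries.

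Partners and target genes of the family were read from lists that were chosen with earlier results of these data known. Of 18 partner genes, all tested, none passed in the comparisons of Ly6D+Gfra2+ with Ly6D+Gfra2- and of Ly6D+Gfra2- with Ly6D-Gfra2-. In the first of these, 3 were higher and 2 lower at an unadjusted p under 0.05 with edgeR. Pax5 ranged from 53.8 to 101 CPM for Ly6D+Gfra2+, against at most 0.710 CPM for Ly6D+Gfra2- (edgeR adjusted p = 0.0569). Irf8 was lower, from 94.0 to 266 CPM, where Ly6D+Gfra2- libraries spanned 594 to 902 CPM (edgeR adjusted p = 0.0986). For both genes these groups did not overlap, which held for 9.71% of all genes tested. In Ly6D+Gfra2+ over Ly6D-Gfra2-, 2 rose and 1 fell, where 1.39% of all genes were called, with a median log2 fold change over the list of 0.14 and 0.01 over all genes. Irf4, which binds DNA together with PU.1 or Spi-B, was at 104, 90.8 and 61.2 CPM in Ly6D+Gfra2+ libraries and between 1.07 and 12.6 CPM in Ly6D-Gfra2- libraries (log2 4.002; edgeR adjusted p = 0.0336). Sin3a, a corepressor scaffold, was at 523, 1067 and 521 CPM in Ly6D+Gfra2+ and between 263 and 425 CPM in Ly6D-Gfra2- libraries (log2 1.05; edgeR adjusted p = 0.0476). Lmo2, a bridging protein of stem cell complexes, fell to 84.4, 70.1 and 41.0 CPM in Ly6D+Gfra2+, against 142 to 259.7 CPM in Ly6D-Gfra2- libraries (log2 -1.77; edgeR adjusted p = 0.0305). Each of the 3 separated the groups without overlap, as 10.2% of all genes did. Within prefix T, edgeR's adjusted p was 0.0442 for Irf4, 0.207 for Sin3a and 0.105 for Lmo2. Leaving out the libraries in turn ended the call in 7 of 13 cases for Irf4 (adjusted p up to 0.111), 10 for Sin3a (up to 0.198) and 6 for Lmo2 (up to 0.102).

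The list of 9 ETS target genes of lymphoid and progenitor cells was chosen in the same way. Its contrast with all genes is therefore not independent of these data. All 9 were tested, and none passed in Ly6D+Gfra2- over Ly6D-Gfra2-. In Ly6D+Gfra2+, 2 rose against Ly6D+Gfra2- (Rag1 and Cd79a) and 4 against Ly6D-Gfra2- (Rag1, Cd79a, Blnk and Il7r), and none fell; of all genes 0.409% and 1.39% were called. The list's median log2 fold change was 0.33 in Ly6D+Gfra2- over Ly6D-Gfra2-, 0.58 in Ly6D+Gfra2+ over Ly6D+Gfra2- and 1.01 in Ly6D+Gfra2+ over Ly6D-Gfra2-, beside -0.01, 0.03 and 0.01 over all genes tested. Blnk, a B-cell receptor adaptor, was at 537 ± 164 CPM in Ly6D+Gfra2+ libraries and 168 ± 129 CPM in Ly6D-Gfra2- libraries (log2 2.37; edgeR adjusted p = 0.00442). Il7r, the interleukin 7 receptor and a PU.1 target, was at 926 ± 185 CPM in Ly6D+Gfra2+ libraries and 441 ± 130 CPM in Ly6D-Gfra2- libraries (log2 1.19; edgeR adjusted p = 0.0228). Rag1, a recombinase subunit, was at 1309 ± 77.2 CPM against 93.4 ± 66.8 CPM in the same groups (log2 4.03; edgeR adjusted p = 0.000166). Cd79a, a signalling chain of the B-cell receptor, was at 153 ± 89.3 CPM in Ly6D+Gfra2+, 4.36 ± 2.31 CPM in Ly6D+Gfra2- libraries and, in Ly6D-Gfra2- libraries, 0.428 ± 0.348 CPM, with log2 fold changes of 5.04 over Ly6D+Gfra2- (edgeR adjusted p = 0.0159) and 8.23 over Ly6D-Gfra2- (edgeR adjusted p = 0.000166). Leaving out the libraries in turn ended the call of Il7r in 4 of 13 cases (adjusted p up to 0.0997) and that of Cd79a over Ly6D+Gfra2- in 2 (up to 0.0601), while Ly6D+Gfra2- over Ly6D-Gfra2- passed without Ly6D-Gfra2- replicate 3 for Rag1, Cd79a and Blnk (edgeR adjusted p = 0.0233, 0.0325 and 0.0354).

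The members did not move as one across libraries. Of the 36 pairs of members, 3 had a Pearson correlation of log2 CPM above 0.5 over the 13 libraries and 1 below -0.5, with a median of -0.01. Among 10413 genes averaging 5 CPM or more, those most like Elk3 were Cpne2 (r = 0.89, Spearman's rho = 0.95) and Smtn (r = 0.85, rho = 0.90), and those most like Erg were Patj (r = 0.91, rho = 0.96) and Nars2 (r = 0.90, rho = 0.92). For Ets1 they were Htra3 (r = 0.90) and Spag1 (r = 0.85), which gave 0.62 and 0.46 without the 2 libraries farthest from the Ets1 median. For Spi1 they were Galnt1 (r = 0.89) and Cdc123 (r = 0.88), for Fli1 Qars and Plcb3 (r = 0.87 each), and for Ets2 Adamts3 and Chchd5 (r = 0.94 each, 0.39 and 0.47 without the 2 farthest libraries). Etv6 was most like Rpl13a (r = 0.93) and Msl1 (r = 0.90), Elf1 most like Rnasek (r = 0.88) and H2ax (r = 0.87), and Elf4 most like Plin2 and Bnip2 (r = 0.87 each). These correlations describe 13 libraries that share group, prefix and depth, and each gene was picked as the highest of many.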

How the data were processed

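The deposited values are raw counts per RefSeq identifier, 1 file per library, as the authors' file headers name them. The submitters' processing notes name FastQC, HISAT, TopHat, HOMER, DESeq and the mm10 build, without versions, roles or order. Strand setting, annotation version and treatment of multi-mapped reads are not given in the sources used here. Total RNA was purified with a Qiagen micro kit and libraries were made with NuGEN Ovation kits, per the labels' protocols. Of 24072 identifiers, 23815 were named from RefSeq GRCm38.p6 and 144 from GENCODE M21. Transcript lengths are those of GENCODE.

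Counts were tested with edgeR 4.0.16 in R 4.3.3 (quasi-likelihood, TMM, two-sided), in 1 fit of 13 libraries with terms for group and prefix, after filterByExpr with a minimum count of 10 and total of 15. Genes were called at a Benjamini-Hochberg adjusted p under 0.05 over 12722 genes. Fold changes are the first group over the second, with the standard error (SE) of the log2 value. CPM use the TMM-scaled library size, and per-kilobase levels divide them by transcript length. Intervals and bounds from counts cover counting error only. Alternatives were DESeq2 1.42.0, limma 3.58.1 voom with quality weights (limma voom throughout), other scalings, filters, designs and each library left out. The design was tested on simulated data. The members and gene lists were chosen with earlier results of these data known. Named genes are the members, in each comparison up to 4 other family genes and up to 3 genes of each other list with the smallest p, and the 2 genes most correlated with each member; those of the rule that are not named here are in the counts. Genes overlapping a member were added after values were seen.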

Additional observations from a re-analysis of the deposited data

Results flagged for a closer look

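In 18 groups of 4 or more libraries, one per member and group, 1 value stood apart from its group by Dixon's criterion, which chance meets in about 1 of 20 groups. Ets2 was at 46.2 CPM in Ly6D-Gfra2- replicate 2, and the nearest of the other five libraries was at 18.0 CPM, a gap of 0.771 of the group's range against a critical value of 0.625.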

How the results depend on the processing

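None of the 9 members was called under any of 25 alternatives in Ly6D+Gfra2- over Ly6D-Gfra2-, with edgeR, DESeq2 or limma voom. In Ly6D+Gfra2+ over Ly6D-Gfra2-, 2 members, Elk3 and Ets1, were called by DESeq2, by limma voom, with at least 5 CPM in 3 libraries and with no prefix term, 1 with RLE size factors and with no filter on low counts, 2 without 3 libraries together (Ly6D-Gfra2- replicate 3, Ly6D+Gfra2- replicate 1 and Ly6D+Gfra2+ replicate 5, left out after seeing the data), and between 0 and 2 with single libraries left out. In Ly6D+Gfra2+ over Ly6D+Gfra2-, 1 was called without those 3 libraries and between 0 and 1 without single ones (0 to 0 in Ly6D+Gfra2- over Ly6D-Gfra2-). Counts of all genes called moved more, in the order Ly6D+Gfra2- over Ly6D-Gfra2-, Ly6D+Gfra2+ over Ly6D+Gfra2- and Ly6D+Gfra2+ over Ly6D-Gfra2-, where the main counts were 0, 52 and 177: DESeq2 gave 52, 714 and 946, limma voom 1, 25 and 109, no filter 9, 164 and 318, only prefix T 1, 9 and 62, and leaving out single libraries 0 to 16, 13 to 184 and 49 to 372. Only the 2 groups compared gave 8 and 72 in the second and the third, no prefix term 103 in the second, library size alone 111 in the third, and the added omission of 3 libraries 23 in the first. The interaction of prefix and Ly6D gave 39 genes with no filter. With the replicate number as a block in place of the prefix, 13, 36 and 108 genes and no member were called. Deviations of same-numbered libraries from their group means correlated between -0.04 and 0.14 over 9 pairs. A library correlated best with its own number in 7 of 18 trials. With so few libraries per group, these values cannot decide whether the numbers pair the samples. Some values changed sign without being called, most of them near 0 but also Spi1 (0.51 and 0.50 in the comparisons with Ly6D-Gfra2-) and Etv6 (0.32 in Ly6D+Gfra2+ over Ly6D+Gfra2-), and the cause was not tested. In Ly6D+Gfra2- over Ly6D-Gfra2- the log2 fold change became -0.07 for Spi1 and -0.04 for Elf4 with limma voom, -0.02 for Etv6 and -0.00074 for Elf4 with library size alone, -0.01 for Etv6 with the block, -0.01 for Ets1 with only prefix T, -0.05 for Etv6 and -0.07 for Elf1 with only prefix P, and -0.13 for Spi1 and -0.14 for Elf4 without the 3 libraries. With single libraries left out it ran from -0.18 to 0.82 for Spi1, -0.13 to 0.23 for Elf4, -0.02 to 0.12 for Etv6 and -0.03 to 0.16 for Elf1. In Ly6D+Gfra2+ over Ly6D+Gfra2- Spi1 became 0.01 with limma voom, 0.12 with the block, 0.30 with only the 2 groups, 0.29 with only prefix T and 0.34 without the 3 libraries, which also gave 0.44 for Ets2, -0.02 for Etv6 and -0.04 for Elf1. With single libraries left out Spi1 ran from -0.65 to 0.46, Etv6 from -0.03 to 0.47, Elf1 from -0.0036 to 0.43, and Ets2 from -10.01, a fitted value that is no bound, to 0.55. In Ly6D+Gfra2+ over Ly6D-Gfra2- Spi1 became -0.05 with limma voom, and Fli1 -0.19 with library size alone and -0.03 with no prefix term; with single libraries left out they ran from -0.13 to 0.97 and from -0.26 to 0.26. Library size alone moved the median of all genes by -0.15 and -0.25 (log2) in the comparisons of Ly6D+Gfra2+ with Ly6D+Gfra2- and with Ly6D-Gfra2-. DESeq2 gave no p for Ets2. Ets2 summed to 271, 601 and 1764 counts in Ly6D+Gfra2+, Ly6D+Gfra2- and Ly6D-Gfra2- libraries. Its values are limited by the spread in Ly6D+Gfra2+, where 2 of 3 libraries had none. Spic and other family genes at or near 0 throughout rest on few counts, and 3 to 6 libraries per group limit all comparisons.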
